A study of Mus musculus with 10 samples.

Results

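The regions described here are the places on mouse chromosome 11 listed for chromatin association of the transcription factor Klf9 in HT22, a neuronal cell line of mouse hippocampal origin that grows indefinitely in culture. They are all rows of the deposited region list with chromosome 11 as their chromosome, with no other filter, and they number 401 of the 3516 regions in all. The study recovered chromatin on streptavidin from 2 stably transfected lines and sequenced 10 libraries. One line carried the construct pSV40-zeo-BirA-V5 alone and was kept under zeocin. The other carried this construct together with pEF-FLBIO-Klf9 and was kept under zeocin and puromycin. BirA, the bacterial biotin ligase that both lines share, attaches biotin to an acceptor peptide, which lets a tagged protein be recovered with the DNA crosslinked to it. Each line gave 1 input library and 4 pulldown libraries, and the labels do not say whether the pulldowns came from separate cultures. The Klf9 recovered was therefore a tagged protein made from a transgene in a cultured line, and the regions need not be those of endogenous Klf9 in hippocampal tissue.

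Klf9 belongs to the Krüppel-like factors, zinc-finger proteins that bind GC-rich and CACCC-type DNA, often in promoters. It is known as a gene induced by thyroid hormone and by glucocorticoids, acts largely as a repressor of transcription, and takes part in the late maturation of hippocampal neurons. Chromosome 11 is one of the gene-dense chromosomes of the mouse.

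For each region the list gives where it begins and where it ends. Positions are printed unchanged, and the build named in the submitters' processing notes is mm8. There is no height, fold or p-value for any region, so library depth and the spread between pulldowns are unknown here, and no value below has a replicate error. Whether a region was also recovered from the line with BirA alone was not analysed here. Regions are not matched to genes and no sequence is shown, because no genome of that build was used. Intervals on shares are exact (Clopper-Pearson) 95% intervals for counting error alone. They take each region as an independent observation, which regions lying side by side are not. No difference between chromosomes, or between parts of chromosome 11, was tested, and overlapping intervals do not show that shares are equal.

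The 401 regions covered 351 kb. The first lay from 3231701 to 3233060 (1360 bp wide) and the last from 121557141 to 121558160 (1020 bp), so that the list spanned 118 Mb of the chromosome at 3.39 regions per Mb of this span. Chromosome 11 held more regions than any other, the next being chromosome 5 with 280 and chromosome 7 with 270. Its share of the list was 11.4% (10.4 to 12.5%) when every region was counted. When regions separated by under 340 bp were joined, chromosome 11 held 348 of 3178 intervals (9.89 to 12.1%), and when regions within 10 kb of each other were counted once it held 308 of 2932 (9.42 to 11.7%). The share was also close to this level among regions of at least the median width of the whole list (197 of 1759, 11.2%) and among narrower ones (204 of 1757, 11.6%). The high number on chromosome 11 was seen in wide and narrow regions alike and after neighbouring regions had been merged.

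Widths on chromosome 11 lay within the range of the other chromosomes. The median width was 889 bp (95% interval from binomial order statistics 830 to 949 bp) on chromosome 11, 904 bp on chromosome 5, 884.5 bp on chromosome 7 and 909 bp (890 to 919 bp) over the other 19 chromosomes, whose own medians ran from 759.5 bp on chromosome 14 to 1000 bp on chromosome 15. The quartiles were 680 and 1020 bp on chromosome 11 and over the other chromosomes alike. The most frequent widths were 1020 bp (75 regions, 18.7%), 680 bp (71 regions, 17.7%) and 1360 bp (21 regions, 5.24%), and 3 regions measured 1700 bp. On the other chromosomes 17.0% measured 1020 bp and 19.1% measured 680 bp. These widths are all multiples of 340 bp and make the narrow spikes in the plot of widths.

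**Figure D1:**
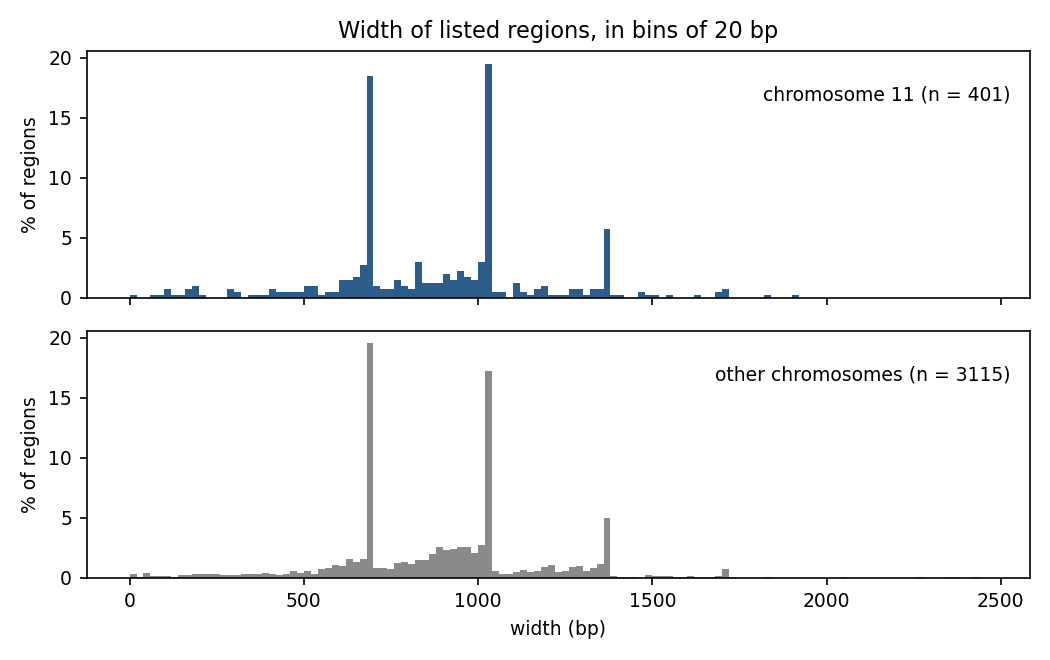
Distribution of region width (x axis, bp, in bins of 20 bp) as a percentage of regions (y axis) for the 401 regions of chromosome 11 and the 3115 regions of the other chromosomes. Both distributions have spikes at the bins that hold 680, 1020 and 1360 bp over a broad background between them.

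The widest region on chromosome 11 measured 1919 bp and lay from 93701732 to 93703650. The next, of 1831 bp, lay from 120164501 to 120166331. Both had another region only 10 bp away. Regions of 1700 bp lay from 50067721 to 50069420, from 50220381 to 50222080 and from 106032061 to 106033760. These 3 stood apart from their nearest neighbours by 12.9, 48.7 and 178 kb. The remaining members of the 10 widest were 2 regions of 1690 bp (117664481 to 117666170 and 121019941 to 121021630) and regions of 1620 bp (95880341 to 95881960), 1549 bp (103082712 to 103084260) and 1519 bp (84695542 to 84697060). Of the 10 widest, 8 lay past the midpoint of the chromosome's listed span, and the 2 widest were the only ones with a neighbour within 10 kb. Over all 401 regions of chromosome 11, 68.8% lay past this midpoint and 40.4% had a neighbour within 10 kb. Whether the widest regions differ from these shares was not tested.

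The narrowest region covered 11 bp, at 32433621 to 32433631. Next came regions of 61 bp (29593261 to 29593321), 81 bp (70819961 to 70820041), 101 bp (77309541 to 77309641) and 111 bp (32121841 to 32121951). All 5 were followed after a gap of exactly 10 bp by another region. Of the 21 regions narrower than 340 bp on chromosome 11, 19 had another region less than 340 bp away. Few of these narrow entries therefore stood alone.

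Adjoining regions were frequent on chromosome 11. In 53 of the 400 gaps between successive regions the gap was less than 340 bp, and in all 53 it measured exactly 10 bp. The 104 regions that border these gaps made up 25.9% of the chromosome's regions (21.7 to 30.5%), against 17.9% on chromosome 5 (13.6 to 22.9%), 23.3% on chromosome 7 (18.4 to 28.8%) and 17.8% over the other 19 chromosomes (16.4 to 19.1%). Among single chromosomes the highest share was that of chromosome 11, ahead of chromosome 3 at 23.7%, and their intervals overlapped. The 104 regions formed 51 joined intervals, 49 of 2 pieces and 2 of 3 pieces. The median piece was 804.5 bp wide and the median joined interval 1479 bp, whereas the 297 regions without such a neighbour had a median of 950 bp.

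The boundaries of these pieces followed a regular pattern. Of all 401 starts, 259 (64.6%) were at a multiple of 340 plus 1, and 269 ends (67.1%) were at a multiple of 340. Elsewhere in the list the shares were 63.3 and 66.0%. In 170 regions both boundaries lay on this 340 bp grid, in 188 regions 1 did, and in 43 regions none did. All 142 starts off the grid were at a multiple of 10 plus 2. Of the 132 ends off the grid, 75 were at a multiple of 10 plus 1 and 57 at a multiple of 10. Each of the 53 left-hand pieces of an adjoining set ended at a multiple of 10 plus 1. In 22 further regions with such an end, no other region followed less than 340 bp after that end. These include the right-hand pieces from 29593332 to 29594041 and from 97096402 to 97097041, which have a partner 10 bp before them. None of the 106 boundaries that face a 10 bp gap lay on the 340 bp grid. This follows from their last digits, because ends on the grid are multiples of 10 and starts on it are multiples of 10 plus 1. Both outer boundaries lay on the grid in 32 of the 51 joined intervals (62.7%), 1 did in 16 and neither did in 3. In the 49 pairs the right-hand piece was the wider in 33 and the left-hand piece in 16, with median widths of 879 and 711 bp.

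After joining, the widest intervals of chromosome 11 were a set of 3 pieces from 60542441 to 60545160 and a pair from 120164501 to 120167220, each 2720 bp wide. Next came pairs of 2710 bp (93700941 to 93703650), 2539 bp (75277202 to 75279740) and 2389 bp (98752602 to 98754990). These 5 intervals were chosen after their values were seen. Those at 93700941 and 120164501 contain the 2 widest single regions named above.

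Regions were spread unevenly along chromosome 11, with long stretches without a region in the proximal part and crowded windows mostly in the distal part. The midpoint of the span was at 62.4 Mb, and 125 regions (31.2%) lay before it and 276 (68.8%) after it, which is 2.11 against 4.67 regions per Mb. Joined intervals divided in nearly the same way, with 111 before and 237 after (68.1%). The median region lay at 78.3 Mb. In steps of 10 Mb the number of regions was highest from 90 to 100 Mb (63 regions, 15.7%), from 70 to 80 Mb (57) and from 110 to 120 Mb (49). It was 47 from 60 to 70 Mb, 41 from 50 to 60 Mb and 39 from 100 to 110 Mb, and fell to 18 from 80 to 90 Mb between these fuller steps. In the proximal part, 22 regions lay before 10 Mb, all of them between the first region and 6526640, in windows of 4 to 6 regions per Mb. There was 1 region from 10 to 20 Mb, 16 from 20 to 30 Mb, 16 from 30 to 40 Mb and 9 from 40 to 50 Mb. Median widths were 919 bp before the midpoint and 879 bp after it.

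**Figure D2:**
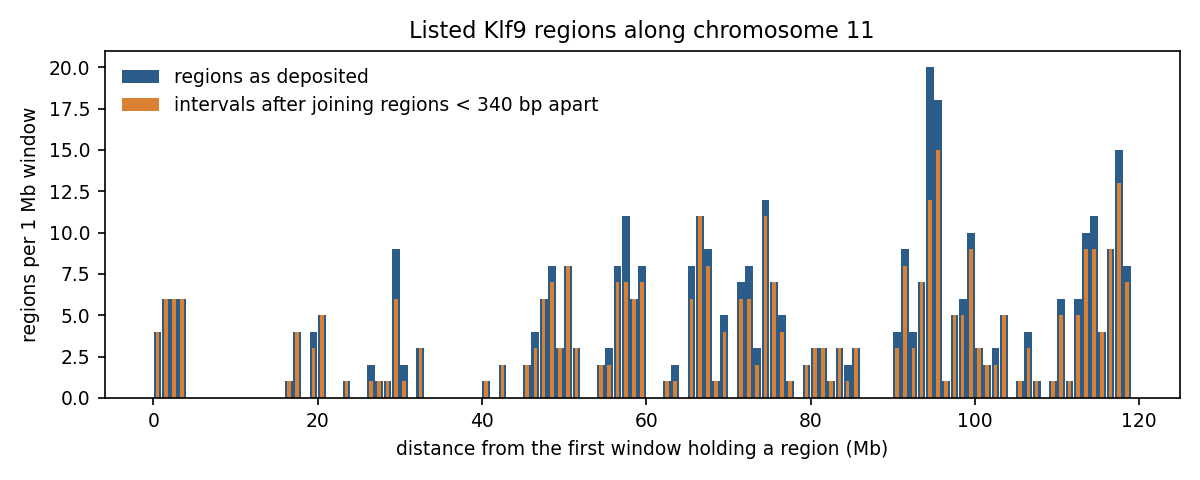
Number of listed regions per window of 1 Mb (y axis) against distance from the first window that holds a region (x axis, Mb), as deposited (wide blue bars) and after joining regions less than 340 bp apart (narrow orange bars). The tallest bars, of 20 and 18 regions, stand side by side in the distal part and fall to 12 and 15 joined intervals.

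Between successive regions the median gap was 66.1 kb on chromosome 11, with quartiles at 14.3 and 240 kb, while over the other chromosomes it was 144 kb. The 5 longest stretches without a region added up to 32.3 Mb, 27.3% of the span. The longest, of 13.3 Mb, ran from the region ending at 6526640 to the one starting at 19825401. It was followed by stretches of 7.79 Mb (35815600 to 43610352), 4.89 Mb (88815820 to 93700941), 3.31 Mb (26287980 to 29593261) and 2.98 Mb (54799840 to 57778581). Of the 5, the stretch of 4.89 Mb was the single one past the midpoint, and it ended at one of the widest joined intervals. In windows of 1 Mb counted from whole Mb, 41 of the 119 windows held no region and 14 held 1. At the other extreme, 19 windows sufficed to hold 50% of the chromosome's regions, and the 9 windows with 10 or more held 118 (29.4%).

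The fullest windows were those from 97 to 98 Mb, with 20 regions, and from 98 to 99 Mb, with 18. Together they held 38 regions (9.48% of the chromosome) between 97003021 and 98776120, in 27 joined intervals. Their make-up differed. From 97 to 98 Mb, 16 of the 20 regions were pieces of adjoining sets, so that the window held 12 joined intervals. From 98 to 99 Mb, 6 of the 18 were such pieces and 15 joined intervals were left. In the first of these windows, pairs followed each other along the chromosome, for example 97216201 to 97217021 with 97217032 to 97217220, 97559972 to 97560801 with 97560812 to 97561640, and 97615082 to 97615851 with 97615862 to 97617060. In the second window the regions from 98174321 to 98175000, from 98254602 to 98255580 and from 98679292 to 98680240 each stood more than 10 kb from any other.

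The next window, from 120 to 121 Mb close to the end of the list, held 15 regions in 13 joined intervals. The window from 77 to 78 Mb held 12 regions in 11 intervals. Windows with 11 regions each lay from 60 to 61, 69 to 70 and 117 to 118 Mb, with 7, 11 and 9 joined intervals. The last of the 8 named windows, from 102 to 103 Mb, held 10 regions in 9 intervals. The window from 69 to 70 Mb had no piece of an adjoining set. Its 11 regions, with a median width of 1020 bp, fell into 4 groups when regions within 10 kb were linked, and its median gap of 6.48 kb was the smallest among the 8. Of the 8 windows, 7 lay past the midpoint of the span, the one from 60 to 61 Mb being the exception.

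Close neighbours were frequent on chromosome 11. Of its 401 regions, 162 (40.4%, 35.6 to 45.4%) had another region within 10 kb, edge to edge. The share was 27.1% on chromosome 5 (22.0 to 32.8%), 32.2% on chromosome 7 (26.7 to 38.2%) and 28.5% over the other 19 chromosomes (26.9 to 30.1%). Chromosome 19, with 41.8% (34.5 to 49.3%), was the one chromosome with a higher share. After regions less than 340 bp apart were joined, 71 of 348 intervals on chromosome 11 (20.4%, 16.3 to 25.0%) had a neighbour within 10 kb, against 13.7% over the other chromosomes (12.5 to 15.0%). Chromosome 11 then came after chromosomes 19 (27.0%), 10 and 17 (22.0% each) and 15 (20.9%). Its interval after joining overlapped those of chromosomes 5 (13.0%, 9.15 to 17.8%) and 7 (14.3%, 10.1 to 19.5%). The share within 10 kb therefore rested in large part on gaps of less than 340 bp, on chromosome 11 and elsewhere alike. Joining took it from 40.4 to 20.4% on chromosome 11 and from 28.5 to 13.7% over the other chromosomes. On chromosomes 5 and 7 it fell from 27.1 to 13.0% and from 32.2 to 14.3%, so the fall was not particular to chromosome 11. Chromosome 11 also held the most regions, and the part of that number in the share was not tested.

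**Figure D3:**
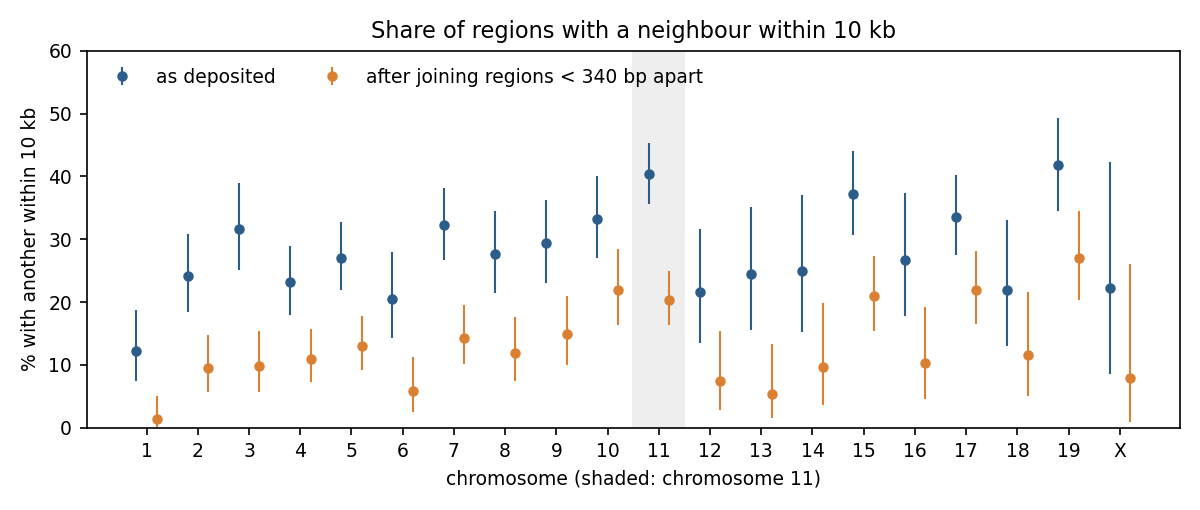
Share of regions with another listed region within 10 kb (y axis, percent) for each chromosome (x axis), as deposited (blue) and after joining regions less than 340 bp apart (orange), with exact 95% intervals as vertical lines. Chromosome 11, shaded, stands at 40.4% as deposited, below chromosome 19 at 41.8%, and at 20.4% after joining.

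The distance to the nearest region had a median of 26.5 kb on chromosome 11 and 49.3 kb over the other chromosomes. Within 1 kb, 28.7% of regions on chromosome 11 had a neighbour (24.3 to 33.4%), against 27.0% on chromosome 7 (21.8 to 32.8%), 18.9% on chromosome 5 (14.5 to 24.0%) and 20.5% over all other chromosomes (19.1 to 21.9%). Chromosomes 11 and 7 thus had overlapping intervals at this distance. Within 50 kb the shares were 66.1 and 50.2%, and within 100 kb they were 82.3% (78.2 to 85.9%) and 63.5% (61.8 to 65.2%). With joined intervals the shares within 1 kb were 4.6% on chromosome 11 (2.65 to 7.36%) and 3.67% over the other chromosomes (3.01 to 4.44%). Within 5 kb they were 12.6% (9.34 to 16.6%) and 8.34% (7.35 to 9.42%). The intervals overlapped at both distances, but within 5 kb only from 9.34 to 9.42%. Within 100 kb the shares of joined intervals were 77.0% (72.2 to 81.3%) and 56.2% (54.4 to 58.1%). Past the midpoint of the span 121 of 276 regions (43.8%, 37.9 to 49.9%) had a neighbour within 10 kb, and before it 41 of 125 (32.8%, 24.7 to 41.8%), and these intervals overlapped.

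**Figure D4:**
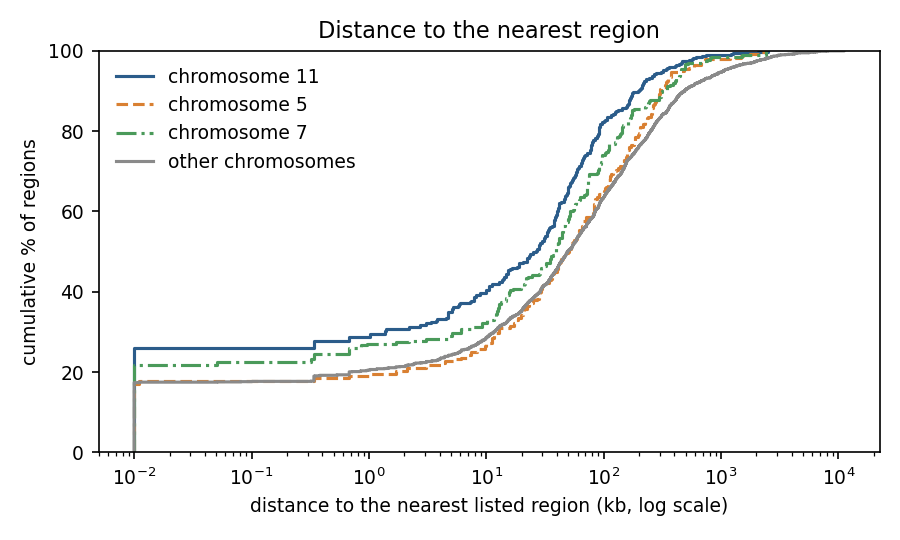
Cumulative share of regions (y axis, percent) by distance to the nearest listed region (x axis, kb, log scale) on chromosome 11, chromosome 5, chromosome 7 and all chromosomes other than 11. The first step of each line is the 10 bp gap, and at 100 kb chromosome 11 has reached 82.3% and the other chromosomes 63.5%.

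Linking regions across gaps of at most 10 kb gave 239 single regions and 69 groups with 162 regions. Of these groups, 52 had 2 members, 12 had 3, 3 had 4 and 2 had 5. The median group spanned 2.06 kb and the longest 21.1 kb. In 38 of the 69 groups the members formed 1 interval once regions less than 340 bp apart were joined, and in the other 31 they formed 2 or more. Median widths were 831 bp for regions with a neighbour within 10 kb and 949 bp for the rest. The first set includes the 104 pieces that border a 10 bp gap. Their median was 804.5 bp as pieces and 1479 bp once joined.

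The first of the 2 largest groups, of 5 regions, lay from 68904152 to 68916300 and spanned 12.1 kb. It opened with a pair of 730 and 189 bp (68904152 to 68904881 and 68904892 to 68905080). After 8160 bp came a region of 1020 bp (68913241 to 68914260), and 680 bp further a second pair, of 411 and 939 bp (68914941 to 68915351 and 68915362 to 68916300). It thus comprised 3 joined intervals, and 27.1% of its length was covered.

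The other group of 5 lay in the fullest stretch, from 98588441 to 98605780, and spanned 17.3 kb in 4 joined intervals. Its members were 680 bp (98588441 to 98589120), 131 bp (98589461 to 98589591), 1219 bp (98589602 to 98590820), 879 bp (98599122 to 98600000) and 1020 bp (98604761 to 98605780). The first 3 followed each other with gaps of 340 and 10 bp, and the last 2 after 8301 and 4760 bp. Of the 5 regions, 3 were therefore packed into the first end of the group.

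Groups of 4 lay from 59007681 to 59025360 (17.7 kb, 3 joined intervals), from 69796221 to 69817300 (21.1 kb, 4 joined intervals) and from 77307642 to 77314270 (6.63 kb, 3 joined intervals). The group at 69796221 was the longest and held no adjoining pair. Its regions of 1020, 680, 1159 and 1019 bp were separated by 9860, 5131 and 2211 bp. The group at 77307642 was the most compact of the 3 and included the region of 101 bp named above. The sixth named group, the first in genomic order of the 12 with 3 members, lay from 22881661 to 22891520 and comprised 2 joined intervals.

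**Figure D5:**
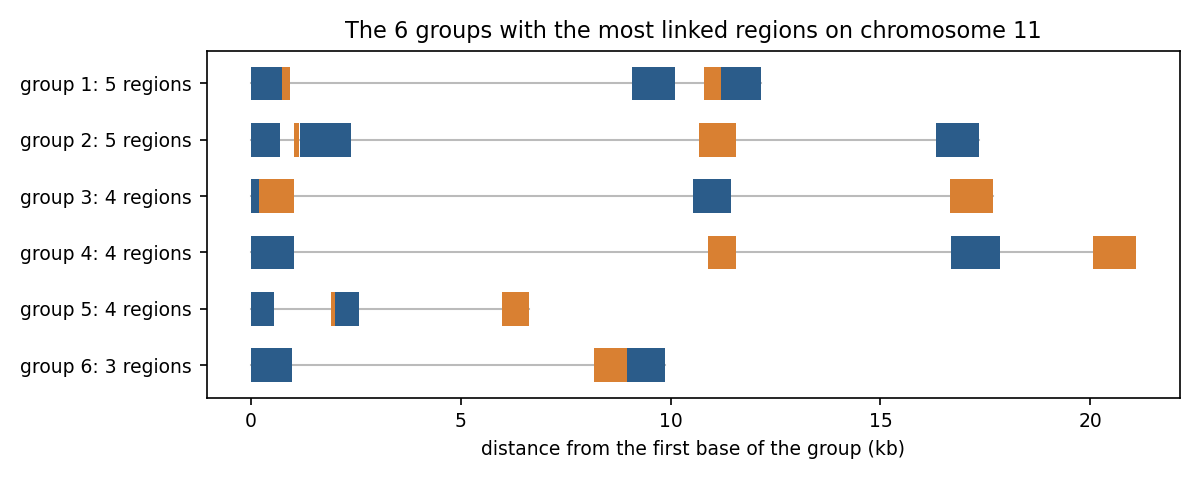
Layout of the 6 named groups of linked regions on chromosome 11, drawn to scale by distance from the first base of each group (x axis, kb), with groups 1 to 6 in the order in which the text describes them. Boxes are regions, in alternating colours so that regions 10 bp apart can be told from each other, and group 4 is the one without such a pair.

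At the other end of the range, 71 regions (17.7%) had no other region within 100 kb, and these made up 5.88% of the 1207 such regions in the whole list. By comparison, chromosome 11 held 11.4% of all regions. In the whole list 65.7% of regions had another within 100 kb, against 82.3% on chromosome 11. The median width of the 71 regions was 869 bp. In 4 regions the nearest other lay more than 1 Mb away. The most isolated, of 880 bp, lay from 26287101 to 26287980, 2.49 Mb from its neighbour. A region of 629 bp from 43610352 to 43610980 stood 2.08 Mb from the next, at the end of the second longest stretch without a region. Regions of 779 bp (65604202 to 65604980) and 289 bp (108159492 to 108159780) were 1.26 and 1.21 Mb from their neighbours, and one of 1020 bp (114490921 to 114491940) was 0.744 Mb away. The region at 108159492 was 1 of the 2 narrower than 340 bp that had no adjoining partner.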

How the data were processed

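Chromatin was recovered on streptavidin, and the labels' protocols give crosslinking with paraformaldehyde and a protein crosslinker and shearing by sonication. The submitters' processing notes name CASAVA, FastQC, Bowtie, bedtools and the build mm8, with no version or role. The labels name no peak caller or thresholds, and do not say how the BirA-only, input and replicate libraries were used. The list deposited by the authors holds positions in bp, which are other than counts or signal, and depth per library is unknown.

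Positions were read as 1-based with both ends included. Regions were joined when less than 340 bp apart and linked at up to 10 kb, and were assigned to windows by their midpoint, with Python 3.11.15, pandas 2.3.3 and scipy 1.17.1. Linking and joining were tested on simulated data. The RefSeq tables at hand are of GRCm38, another build, so no region was matched to them, and the planned sequence and gene analyses were not run. Named regions are the first and last, the 10 widest, 5 narrowest, 6 largest groups, 8 fullest windows, 5 longest stretches and 5 most isolated regions, ties in genomic order. Members and rules were chosen with earlier results of these data known.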

Additional observations from a re-analysis of the deposited data

How the results depend on the processing

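Of 34 values under the alternatives, 19 stayed within 1.5 times the reported number, or for medians and shares within its 95% interval, and 15 moved. This tally is not a measure of robustness, because several alternatives fixed the direction of the change beforehand. Joining regions less than 340 bp apart moved the median width from 889 to 1010 bp and the share within 10 kb from 40.4 to 20.4%. Among regions of at least the whole list's median width, used because no score is listed, chromosome 11 held 197 regions covering 222 kb, with a median of 1020 bp. In that subset 19.3% had a neighbour within 10 kb, the fullest window held 8, the largest group held 2, and 70.1% of boundaries lay on the 340 bp grid, against 65.8% of all. The share with a neighbour was 28.7% at 1 kb, 34.9% at 5 kb, 47.1% at 20 kb and 66.1% at 50 kb, and the largest group at 1 kb held 3 regions. The fullest window of 0.5 Mb held 12 regions. A share with a neighbour can only rise or stay with a longer distance, and a smaller window cannot hold more regions. The median and the number of regions in that subset of wide regions are set by its own construction. Leaving out narrower regions could only lower or keep its covered length, fullest window and largest group, and could only take neighbours away. The cause of the subset's higher grid share was not tested. Leaving out regions under 100 bp moved no value past these limits. Reading positions as 0-based, run for the number of regions, covered length and median width, moved none of these. That reading cannot change the number and took the median width only from 889 to 888 bp, so it was no real check. No paired analysis was possible because values of single libraries were not analysed here, and no replicate could be left out. Depth limits were not analysed here.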
